A study of Mus musculus with 49 samples.

Results

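The genes described here were 10 early-response transcription factors of mouse cells: the Fos family (Fos, Fosb, Fosl1 and Fosl2), the Jun family (Jun, Junb and Jund), Atf3, Egr1 and Myc. They were taken by name, as the rows of the deposited count matrix whose Ensembl identifiers map to these symbols, and made up 10 of 46078 identifiers, of which 31981 had at least 1 count in some library. All 49 libraries came from wild-type C57BL/6J mice and were profiled with CEL-seq2, a method that sequences 3′ ends of polyadenylated RNA and counts each captured molecule once by its unique molecular identifier (UMI). The study followed hepatocytes that lose their identity in culture and become expandable, progenitor-like cells, called dediHeps, and then placed those cells in conditions that favour hepatocytes or intestinal epithelium.

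Livers of 10-week-old mice were digested with collagenase, and hepatocytes were enriched by centrifugation and not by cell sorting. Freshly isolated hepatocytes (FH, n = 3) were compared with hepatocytes grown in monolayer in medium with 20 ng/mL epidermal growth factor for 3 h or for 1, 2, 4, 7 or 14 d (n = 3 each). Hepatocytes kept for 7 d with 0.3 µM verteporfin, an inhibitor of the co-activator Yap, or with its solvent DMSO gave 2 libraries each. The dediHeps (n = 5) were monolayers whose labels end in 5 different suffixes, read here as culture names. The labels do not say what the suffixes mean. Of the same culture names, 3 were also grown as aggregates in ultra-low-attachment wells (n = 3) and 3 as spherical organoids in Matrigel (dediHep-SO, n = 3). Budding organoids were grown in Matrigel from dediHeps that received Cdx2, an intestinal transcription factor (dediHep-BO, n = 3). Chemically induced liver progenitors (CLiPs, n = 3) are hepatocyte-derived cells propagated in monolayer with small molecules. The intestinal references were spherical organoids of fetal intestinal progenitor cells from E13.5 embryos (FIPC-SO, n = 3) and budding organoids from adult small-intestinal crypts (ISC-BO, n = 4). The labels do not say whether libraries of 1 group came from separate mice, so p-values measure the spread between these libraries, which may in part be technical.

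Fos-family and Jun-family proteins pair through leucine zippers to form AP-1, the dimer that binds the TGA(G/C)TCA element in promoters and enhancers of growth, matrix and stress genes. Fos, Fosb, Jun, Junb, Atf3, Egr1 and Myc are immediate-early genes: growth factors, cell damage and the loss of tissue contacts switch them on through MAP kinases within minutes and with no new protein made, and their short-lived transcripts normally decay soon after. Fosl1 and Fosl2 follow later and can be held up by AP-1 itself, whereas Jund is kept at a steady level in many cell types. In the liver this set is best known for the priming of hepatocytes after partial hepatectomy and for its induction when the tissue is dissociated with collagenase.

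Levels are given as CPM, the UMI count divided by the library total and scaled by the trimmed mean of M values (TMM), a scale on which libraries can be compared for 1 gene but genes cannot be ranked against each other. A member was called changed when edgeR's quasi-likelihood F-test gave a false discovery rate (FDR) under 0.1 over all genes tested and the log2 fold change passed 2, the thresholds the study used. Fold changes are log2 values ± standard error (SE). The libraries held 861047 to 3872936 UMIs, with a median of 1976760, so that 3 UMIs stood for 0.632 to 4.11 CPM. The TMM factors averaged 0.637 in FH and 0.594 at 3 h against 0.936 to 1.22 in the other groups, and scaling to library totals would shift every log2 ratio of the 1 d to 14 d cultures against FH by 0.58 to 0.82 and of dediHeps against FH by 0.77. On that scale the log2 ratios of 6 called changes came to under 2 in size, those of Fosl2 at 3 h (1.94), Fos at 1 d (-1.93), Jun at 1 d (-1.72) and 7 d (-1.67) and Atf3 at 14 d (-1.29), all against FH, and that of Egr1 from 3 h to 1 d (-1.73). Of members not called and fitted at under 2 in size, it put past 2 Fosl2 against FH at 4 d (2.01), 7 d (2.46) and 14 d (2.67), Fosb in dediHeps against FH (2.84) and at 14 d against 7 d (2.02), Egr1 in dediHeps against 14 d (2.05) and Fosl1 in aggregates against dediHeps (-2.02).

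Libraries of 1 group also differed in the level of GC-rich genes relative to GC-poor genes. Whether capture or expression made this difference was not tested. A GC gap was taken as the median log2 CPM of genes above 51.4% GC less that of genes below 36.4% GC, by their last 500 transcript bases, and it ran from -1.65 to 0.877 on the log2 scale, and the widest difference within a group was 0.345 to 1.95. It is printed beside the results of members at the ends of the GC range, Myc (31.4% GC) and Jund (56.2% GC). A pair of libraries stood apart from their groups, before any comparison, in the summed levels of listed genes. Replicate 1 of the dediHeps had a summed level of 30 other immediate-early genes of 11041 CPM against 4368 to 6387 in the other dediHep libraries, with a GC gap of -1.43. Replicate 3 of the CLiPs had a sum of 5596 CPM against 3335 to 3527, and its summed hepatocyte markers were 9047 CPM against 2155 to 2515. Counts of members and of listed genes without these libraries are given beside those with them, the latter counts as an alternative added after the data were seen. By the GC gap other libraries stood apart too. FH replicate 1 had -1.45 against -0.21 and 0.08, and replicate 2 at 7 d had -1.65 against 0.30 and -0.42. Calls without them come only from leaving out each library in turn.

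In the mouse genome (build GRCm38), the Fos gene (ENSMUSG00000021250) lies at chr12:85473890-85477273 on the plus strand, Fosb (ENSMUSG00000003545) at chr7:19302696-19310051 on the minus strand, Fosl1 (ENSMUSG00000024912) at chr19:5447547-5455946 on the plus strand and Fosl2 (ENSMUSG00000029135) at chr5:32135801-32157842 on the plus strand. The Jun gene (ENSMUSG00000052684) lies at chr4:95049034-95052222 on the minus strand, Junb (ENSMUSG00000052837) at chr8:84974484-84978718 on the minus strand and Jund (ENSMUSG00000071076) at chr8:70698949-70700616 on the plus strand. Atf3 (ENSMUSG00000026628) spans chr1:191170296-191218039 on the minus strand, and Myc (ENSMUSG00000022346) spans chr15:61985391-61990374 on the plus strand. Egr1 has the identifier ENSMUSG00000038418. The strand setting of the counting is not given in the sources used here, so counts of Fosl1, Jun, Junb, Jund and Atf3 could include reads of genes annotated on the same bases (Ccdc85b, Junos, Prdx2, Gm11175 and Gm24748, by 2767, 689, 351, 919 and 108 bases).

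The starts of Fos, Fosb, Junb and Atf3 are shown because all 4 members were called lower in aggregates than in dediHeps, and because each holds the letters TGACG, the core of the element bound by CREB and ATF proteins, within 250 bases of its start. The stretches are the 130 bases just before the RefSeq transcription start (GRCm38.p6), written on the strand of the gene, and capitals mark TGACG, or CGTCA where it stands on the other strand.
Fos, chr12:85473760-85473889, plus strand: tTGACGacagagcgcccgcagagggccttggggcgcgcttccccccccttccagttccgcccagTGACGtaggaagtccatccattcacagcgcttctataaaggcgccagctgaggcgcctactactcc
Fosb, chr7:19310046-19310175, minus strand: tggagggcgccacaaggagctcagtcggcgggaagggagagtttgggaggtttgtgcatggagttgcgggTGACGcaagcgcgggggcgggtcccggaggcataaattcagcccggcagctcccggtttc
Junb, chr8:84978749-84978878, minus strand: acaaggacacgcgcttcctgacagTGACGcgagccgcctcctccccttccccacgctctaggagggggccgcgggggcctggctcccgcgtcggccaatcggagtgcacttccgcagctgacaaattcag
Atf3, chr1:191183334-191183463, minus strand: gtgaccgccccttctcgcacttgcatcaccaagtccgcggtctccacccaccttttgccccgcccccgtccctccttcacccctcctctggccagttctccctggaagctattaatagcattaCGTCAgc
Fos holds TGACG at 129 to 125 and at 66 to 62 bases before its start, Fosb at 60 to 56, Junb at 106 to 102, and Atf3 holds it on the other strand at 7 to 3. The RefSeq table held 7 of the 10 members, with no entry for Fosl1, Egr1 or Myc. TGACG was found on either strand in 4 of those 7 promoters of 250 bases and in 17.8% of all 32851 promoters searched. The EGR motif GCGNGGGCG was found in 2, Fosb and Fosl2, against 4.7% of all promoters, and the Sp1 letters GGGCGG in 5 against 32.7%. TATAAA was found in Fos alone, at 33 to 28 bases before the start, against 12.4% of all. The full CRE TGACGTCA (1.55% of all promoters), the AP-1 element TGANTCA (6.75%) and the Myc E-box CACGTG (6.02%) were found in none of the 7, which says only that these letters are not in these windows.

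The first comparison asked how far the first hours of plating moved the factors from their levels in freshly isolated cells. FH cells had already been digested with collagenase, and no library of intact liver was made. Changes during isolation were therefore not measured. At 3 h, 6 of the 10 members were called higher than in FH (Fosb, Fosl1, Fosl2, Atf3, Egr1 and Myc) and none lower, while 3.06% of the 12443 genes tested were called higher and 3.85% lower. The members' median log2 fold change was 2.15, against -0.07 over all genes. Fos, Jun, Junb and Jund did not pass the call.

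**Figure D1:**
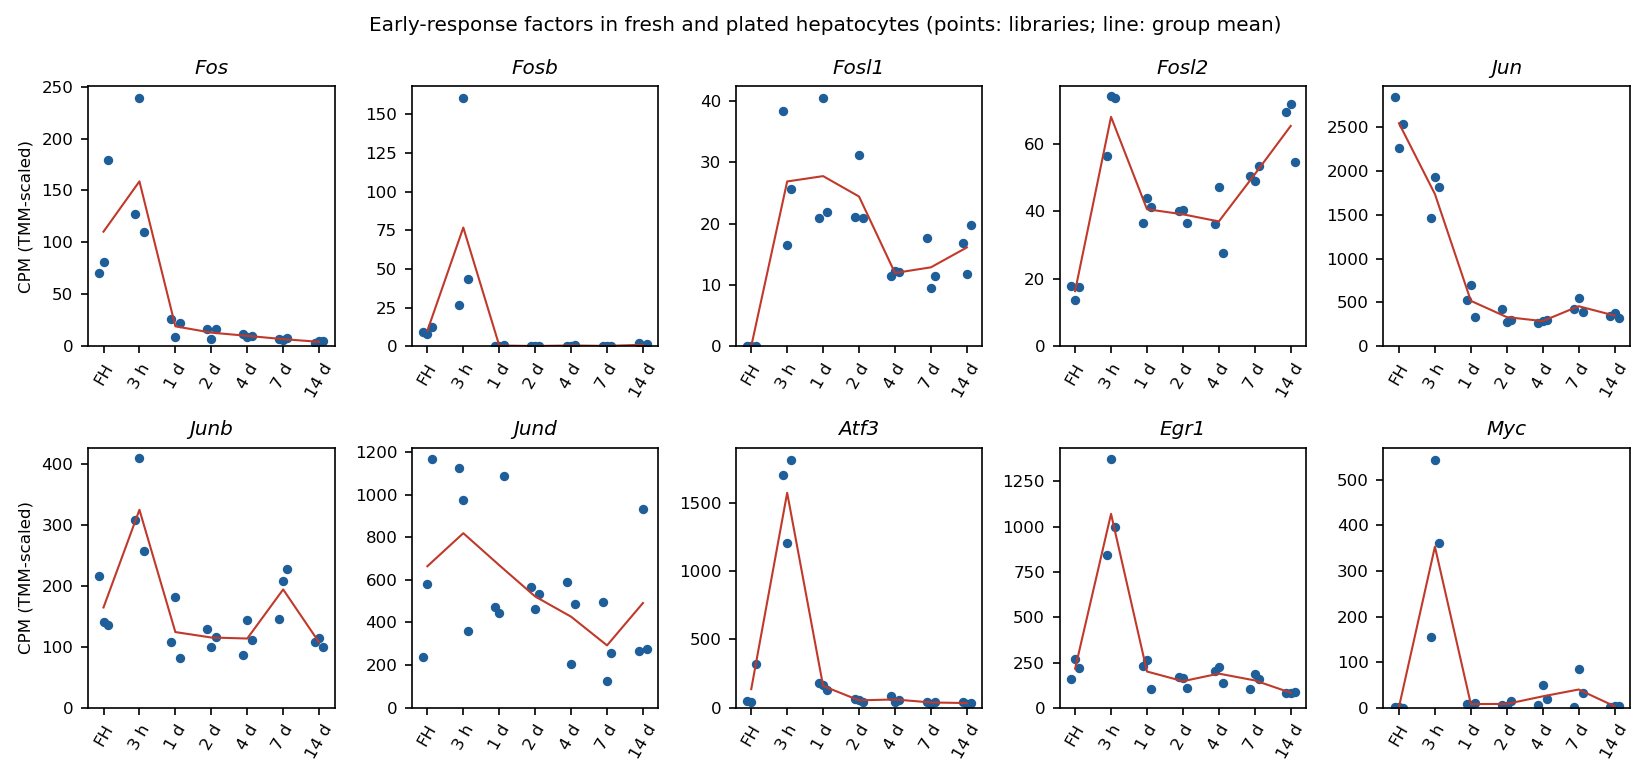
Level of each member (CPM, TMM-scaled, linear axis from 0) in fresh hepatocytes and in cultures of 3 h to 14 d; points are libraries and the line joins group means. Fosb, Atf3, Egr1 and Myc stand highest at 3 h and are down by 1 d, Fos and Jun are high in FH and at 3 h, and Fosl1 and Fosl2 stay above FH in every later library.

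Atf3, a stress-induced factor that can dimerise with Jun and often represses its targets, was measured at 47.3, 45.3 and 317 CPM in FH and at 1701, 1204 and 1816 CPM at 3 h. All 3 libraries at 3 h lay above all FH libraries, of which replicate 3 was the highest. The change was 3.49 ± 0.54 (FDR = 0.000245). At 1 d Atf3 was at 182, 169 and 127 CPM, a fall of 3.37 ± 0.53 on the log2 scale from 3 h (FDR = 3.55e-05). Without FH replicate 3 the change from FH was 5.07 at 3 h, and the 1 d libraries lay above both remaining FH libraries, by 1.71 (FDR = 0.00119), short of the fold threshold.

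Egr1, a zinc-finger factor driven by serum response factor and ERK, showed the same course. It stood at 159, 270.1 and 219 CPM in FH, at 843, 1373 and 997 CPM at 3 h and at 231, 264 and 106 CPM at 1 d. The 3 h libraries did not overlap with either neighbour. Egr1 rose by 2.28 ± 0.36 to 3 h (FDR = 0.000266) and fell by 2.48 ± 0.36 to 1 d (FDR = 1.16e-05).

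Myc, the factor that drives ribosome production and entry into the cell cycle, was close to absent in FH, with 2, 2 and 0 UMIs (2.37, 2.74 and 0 CPM). At 3 h it was measured at 156, 544 and 361 CPM, and at 1 d at 7.39, 7.07 and 9.69 CPM. No library of either neighbour came near those at 3 h, and Myc rose by 7.71 ± 1.18 on the log2 scale to 3 h (FDR = 0.000232) and fell by 5.52 ± 0.93 to 1 d (FDR = 7.25e-05). Among the 3 h libraries the highest Myc level was in replicate 2, whose GC gap (-0.34) was the highest of the 3.

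Fosb, a partner of Jun that is induced by the same signals as Fos, was at 9.47, 8.23 and 12.4 CPM in FH and at 26.8, 160.3 and 43.2 CPM at 3 h. Every library at 3 h was above every FH library, and replicate 2 was much the highest. The change was 2.89 ± 0.68 (FDR = 0.00896), but without replicate 2 at 3 h it was 1.78 with an FDR of 0.135. By 1 d Fosb had nearly disappeared, with 0 to 1.79 CPM in all libraries from 1 d to 14 d. From 3 h to 1 d it fell 166-fold by UMI counts (95% counting interval 56.0 to 812), a log2 change of -7.19 ± 0.89 (FDR = 1.79e-06).

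Fosl1, whose product Fra-1 is known from migrating epithelial and tumour cells, had 0 UMIs in all 3 FH libraries. It appeared at 38.3, 16.6 and 25.7 CPM at 3 h, at least 22.3-fold above the level that 3 UMIs would give in FH (FDR = 1.28e-05). At 1 d it stood at 20.9, 40.4 and 21.9 CPM, overlapping with 3 h, at a log2 difference from 3 h of -0.01 ± 0.40 (FDR = 0.984). It was still at 16.8, 11.8 and 19.7 CPM at 14 d, and its lower bounds against FH were 23.2-fold at 1 d, 20.9-fold at 2 d, 10.1-fold at 4 d, 11.2-fold at 7 d and 13.3-fold at 14 d, called higher each time.

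Fosl2, which encodes Fra-2, went from 17.8, 13.7 and 17.6 CPM in FH to 56.2, 74.1 and 73.6 CPM at 3 h, with no overlap. The change of 2.02 ± 0.30 (FDR = 0.000135) lay just past the fold threshold and dropped below it without FH replicate 2 (1.93), without replicate 2 at 3 h (1.97) or without replicate 3 at 3 h (1.95). It was lower at 1 d, at 36.5, 43.9 and 41.3 CPM (a log2 difference of -0.81 ± 0.27, FDR = 0.0175, short of the fold threshold). It was then measured at 27.5 to 47.1 CPM at 4 d and at 69.5, 71.7 and 54.6 CPM at 14 d, all above FH, where the difference was 1.96 ± 0.29 (FDR = 9.26e-06) and again short of the fold threshold, which it passed without FH replicate 1 (2.02) or 3 (2.03) or without replicate 2 (2.00) or 3 (2.16) at 14 d.

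Fos itself was high before plating. It stood at 71.0, 80.9 and 179 CPM in FH and at 128, 239 and 109.8 CPM at 3 h, with overlapping libraries and a difference of 0.49 ± 0.42 (FDR = 0.465). At 1 d it was at 26.1, 9.09 and 22.4 CPM, below every earlier library. Fos fell by 3.11 ± 0.45 on the log2 scale from 3 h to 1 d (FDR = 1.33e-05), differed from FH by -2.62 ± 0.45 at 1 d (FDR = 9.04e-05), and was at 2.86, 5.29 and 4.65 CPM at 14 d, where the change against FH was -4.77 ± 0.53 (FDR = 1.44e-07).

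Jun, the main activating partner in AP-1, was highest in FH. Its levels were 2841, 2259 and 2533 CPM in FH, 1462, 1927 and 1820.3 CPM at 3 h and 524, 702 and 329 CPM at 1 d. The 3 groups did not overlap, but the difference from FH to 3 h was -0.57 ± 0.27 (FDR = 0.169) and that from 3 h to 1 d was -1.81 ± 0.28 (FDR = 2.42e-05), short of the fold threshold except without replicate 2 at 1 d (-2.10). Against FH, Jun was called lower at each later time, by -2.38 ± 0.28 at 1 d (FDR = 1.05e-06), -3.22 ± 0.29 at 4 d (FDR = 9.26e-09) and -2.89 ± 0.29 at 14 d (FDR = 2.93e-08).

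Junb, which often restrains Jun, stood at 217, 141 and 137 CPM in FH and at 308, 411 and 257 CPM at 3 h. The 3 h libraries were the higher ones throughout, with a difference of 0.96 ± 0.32 (FDR = 0.0535) that stayed short of the fold threshold, as did the drop of -1.45 ± 0.32 to 1 d (FDR = 0.00102). No later time passed the FDR threshold against FH. Jund, the member kept on in resting cells, was measured at 240.3, 583 and 1169 CPM in FH and at 1123, 975 and 358 CPM at 3 h. Its libraries spread widely within each group and overlapped, with a difference of 0.26 ± 0.59 (FDR = 0.814). In 9 of the 14 groups of 3 or more libraries, the library with the highest Jund was the one with the highest GC gap, and in 1 the one with the lowest. Whether GC capture had a part in Jund's spread was not tested.

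From 3 h to 1 d, 5 of 10 members were called lower (Fos, Fosb, Atf3, Egr1 and Myc) and none higher. Over all genes 24.2% were called in either direction, so the share called lower was at most that. The median log2 fold change of the 10 members was -2.15, against 0.08 over all genes. These comparisons share the 3 h libraries with those against FH. At 1 d, Fos, Fosb and Jun were below every FH library, the libraries of Egr1 overlapped with FH, those of Atf3 did so only through FH replicate 3, and Fosl1 and Fosl2 were above every FH library.

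Against FH, 4 members were called at 1 d and at 2 d and 5 at 4, 7 and 14 d. The genes called lower made up 10.9%, 12.1%, 12.4%, 12.8% and 15.3% of all genes tested at the 5 times, and those called higher 6.57%, 9.21%, 11.4%, 13.2% and 14.1%. Fos, Fosb and Jun were called lower and Fosl1 higher at every time. Fosb was 21.3-fold lower at 1 d (95% counting interval 6.52 to 110.3) and 22.3-fold lower at 4 d (6.84 to 115), from 1 to 3 UMIs in the later group, and was lower by -3.20 ± 0.88 at 14 d on the log2 scale (FDR = 0.00474).

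Atf3 was called lower than FH at 14 d alone, at 40.5, 29.4 and 33.7 CPM (-2.02 ± 0.53, FDR = 0.00315). That call rested on FH replicate 3, the library at 317 CPM, without which the value was -0.44, and it was also lost without replicate 2 (-1.82) or replicate 3 (-1.93) at 14 d. At 7 d Atf3 was called lower without FH replicate 1 or 2 (-2.29 in both cases). Egr1 was at 79.1, 82.9 and 87.1 CPM at 14 d, below all FH libraries, a difference of -1.40 ± 0.35 (FDR = 0.00231) that did not reach the fold threshold.

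Myc came back in some libraries of the middle times. It was measured at 5.71, 50.2 and 19.3 CPM at 4 d, at 2.12, 86.0 and 32.1 CPM at 7 d and at 2.15, 2.94 and 4.65 CPM at 14 d. Against FH it was called higher at 4 d (3.86 ± 1.23, FDR = 0.015) and at 7 d (4.51 ± 1.20, FDR = 0.0042), though replicate 1 at 7 d overlapped with FH. The libraries with the most Myc were those with the lowest GC gap, -0.96 against -0.34 and -0.64 at 4 d and -1.65 against 0.30 and -0.42 at 7 d, and both calls were kept in a fit with the gap as a covariate.

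From one culture time to the next after 1 d, almost no member was called. By edgeR none passed from 1 to 2 d, from 2 to 4 d or from 4 to 7 d, where 4.38%, 2.35% and 1.73% of all genes did. At an unadjusted p under 0.05 there were 2, 1 and 2 members, and DESeq2 called 0 in each. Atf3 came closest from 1 to 2 d, at 67.5, 55.6 and 39.5 CPM on day 2, below all 1 d libraries (-1.54 ± 0.51, FDR = 0.0829). From 7 to 14 d Myc was called lower (-3.68 ± 0.99, FDR = 0.0699, with 1.75% of all genes called in either direction), with overlapping libraries. Without replicate 2 at 7 d its value was -2.50 and with the GC gap as a covariate it was -1.89 (FDR = 0.532), and the call was lost in both, as it was without replicate 3 at 7 d (-3.75) and without replicate 1 (-3.37), 2 (-3.62) or 3 (-3.88) at 14 d.

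**Figure D2:**
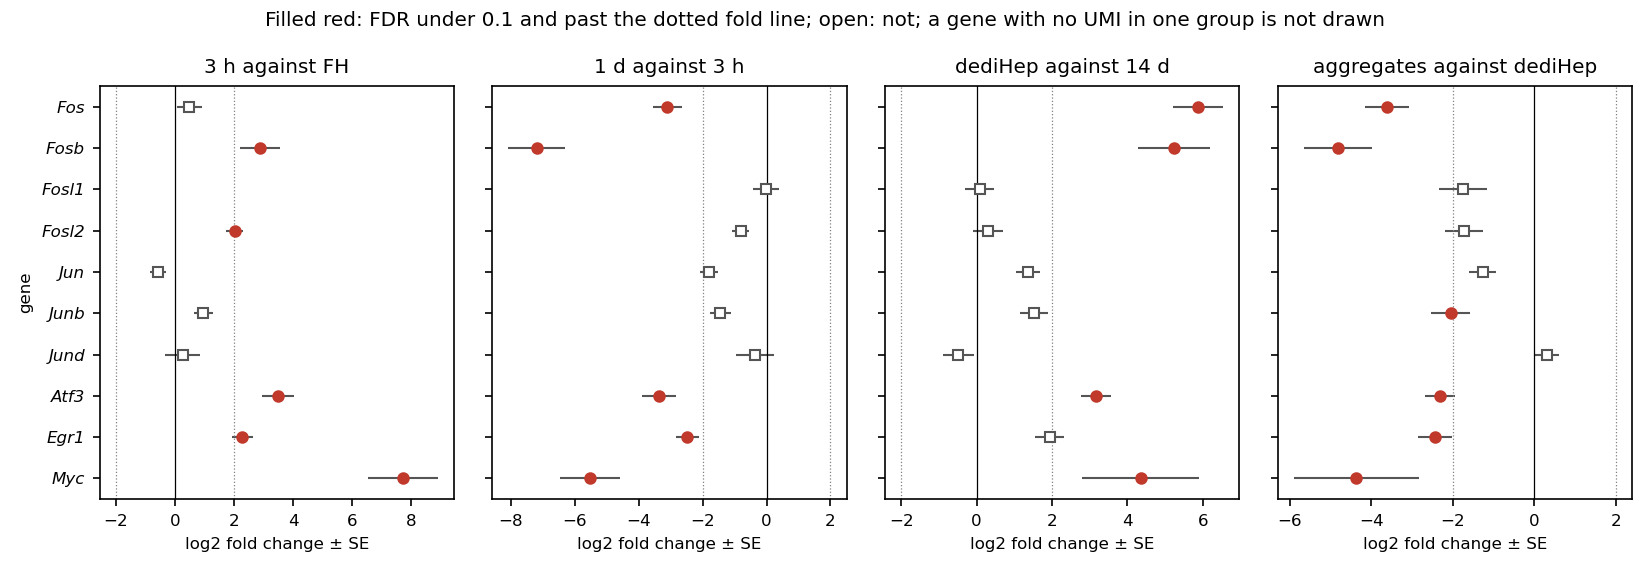
Log2 fold change ± SE of each member in 4 comparisons (fresh hepatocytes to 3 h, 3 h to 1 d, 14 d culture to dediHeps, dediHeps to aggregates); filled points passed FDR 0.1 and the dotted line at a log2 value of 2, open ones did not. Fos, Fosb, Atf3 and Myc lie on the same side of zero as each other in all 4 panels, Jund lies closer to zero than 1 in all 4, and Fosl1 is not drawn in the first panel because FH held no UMI of it.

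Other genes of the response moved at 3 h as well. Of 30 other immediate-early genes, 27 were tested at 3 h against FH, 16 were called higher and none lower, with a median of 2.30. They included Ier5 (5.43 ± 0.38, FDR = 5.93e-09), Klf6 (4.79 ± 0.43, FDR = 2.68e-07) and Rhob (2.75 ± 0.33, FDR = 1.37e-05). Of 22 AP-1 target genes 15 were tested, 8 were higher and 1 lower, with a median of 3.46. In FH, 9 of the 22 AP-1 targets and 4 of the 30 other immediate-early genes had no UMI. Those of them that were tested could not fall. The haem-degrading enzyme gene Hmox1 rose by 5.64 ± 0.65 and the chemokine gene Cxcl1 by 3.72 ± 0.44. The 1 lower gene was the hyaluronan receptor gene Cd44, with 2 UMIs at 3 h against 52 in FH.

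Among the 16 partners of AP-1, 13 were tested, 2 were called higher and 2 lower, among them the small Maf genes Maff (3.90 ± 0.47) and Mafk (2.04 ± 0.55), which rose, and Maf (-2.82 ± 0.67), which fell. Among 24 upstream kinases and Srf or Elk factors, 1 was lower and none higher. None of 22 Myc target genes was called by edgeR or by DESeq2 at 3 h, when Myc was highest, and 3 had an unadjusted p under 0.05. From 3 h to 1 d, 2 of the 22 were called higher and 0 lower, where 24.2% of all genes were called in either direction and so at most that share higher. They were the nucleolar gene Mybbp1a (2.08 ± 0.34, FDR = 4.4e-05) and the pyrimidine synthesis gene Cad (3.49 ± 0.65, FDR = 0.000203). At any fold 14 were higher and 1 lower, and the share over all genes at any fold is not given here. The median was 0.88, against 0.08 over all genes.

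The pathway divided further with time. From 3 h to 1 d, 10 of 27 other immediate-early genes fell and 3 rose, among them the mRNA-decay factor gene Zfp36 (-5.41 ± 0.55), the cytokine-signalling inhibitor Socs3 (-6.48 ± 0.85) and the NF-κB inhibitor gene Nfkbia (-2.04 ± 0.26) on the falling side and the kinase gene Sgk1 (2.19 ± 0.45) on the rising side. At 14 d against FH, 13 of 15 AP-1 targets were higher and 1 was lower, with a median of 5.50 against 0.04 over all genes. Of the 22 listed, 9 had no UMI in FH, and those of them that were tested could not fall. Spp1, the osteopontin gene (7.27 ± 0.60), and Cd44 (5.59 ± 0.50) were higher and Vegfa (-3.31 ± 0.56) was lower. At that time Fosl1 was the 1 member called higher.

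Summed markers of other liver cells also differed at 3 h, some lower and some higher. The summed level of 8 Kupffer cell markers was 89.0 to 328 CPM in FH and 2.56 to 14.0 CPM at 3 h, with Vsig4, Cd5l, Adgre1 and Marco at 0. The sum of 6 endothelial markers was 192 to 320 CPM in FH and 59.5 to 121 CPM at 3 h with none at 0, and that of 7 stellate cell markers was 77.6 to 204 CPM and 29.4 to 30.4 CPM, with Col1a1 and Pdgfrb at 0. The 6 cholangiocyte markers include Spp1, which is also in the list of AP-1 targets. The sum of these markers was 17.8 to 107 CPM in FH, with Krt19, Epcam and Cftr at 0. At 3 h it was 694 to 737 CPM, with Krt19 at 0. The sum of 6 lymphocyte and granulocyte markers was 3.11 to 9.47 CPM in FH, with Cd3e, Cd79a and Nkg7 at 0. At 3 h it was 1.11 to 3.5 CPM, with Cd3e, Cd79a, S100a8 and S100a9 at 0. Hepatocyte markers summed to 21508 to 30735 CPM in FH and to 27119 to 28041 CPM at 3 h, then to 8667 to 10388 CPM at 1 d. In such bulk libraries fewer cells of a type and less RNA per cell cannot be told apart, and the part of other cells in the members' changes was not tested.

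The next comparisons asked whether the stable dediHeps kept the factors of the first hours. In dediHeps, 3 members were called higher than in FH and none lower, where 13.1% of 11276 genes were called higher and 12.6% lower. Against the 14 d culture, 4 were called higher and none lower, where 3.84% of 11167 genes were called higher and 2.09% lower. Without dediHep replicate 1 the counts were 2 (Fosl1 and Myc) against FH and 3 (Fos, Fosb and Atf3) against 14 d. Fos and Fosb, which at 14 d lay below every FH library, overlapped with FH again in dediHeps.

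Fos was measured at 548, 172, 206, 159 and 142 CPM in the 5 dediHep libraries, every one above the highest 14 d library (5.29 CPM), and 3 of them within the range of FH. The difference from 14 d was 5.88 ± 0.66 (FDR = 0.000689) and 5.34 without replicate 1, and that from FH was 1.06 (FDR = 0.154), or 0.50 without replicate 1. Fosb was at 105, 30.7, 24.8, 38.8 and 11.9 CPM, again above every 14 d library, and the lowest overlapped with FH. The difference from 14 d was 5.23 ± 0.97 (FDR = 0.00971) and 4.54 without replicate 1, and that from FH was 1.96 ± 0.71 (FDR = 0.0477), short of the fold threshold. The latter was 1.26 without dediHep replicate 1 and passed the call without dediHep replicate 2 (2.11), 3 (2.11), 4 (2.00) or 5 (2.20) or FH replicate 3 (2.14).

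Atf3 stood at 315, 366, 188, 504 and 215 CPM. All 5 dediHep libraries were above all 14 d libraries and below all 3 h libraries, and the range overlapped with FH only through FH replicate 3. The difference from FH was 1.10 (FDR = 0.204), and without that library it was 2.66 (FDR = 0.00371) and passed the call. Atf3 was higher than at 14 d by 3.17 ± 0.39 (FDR = 0.00114), or 3.16 without replicate 1. Egr1 was at 549, 341, 261, 287 and 175 CPM, above every 14 d library, with a difference of 1.94 ± 0.38 (FDR = 0.0135) that did not reach the fold threshold. It was 1.65 without dediHep replicate 1 and passed the call without dediHep replicate 3 (2.00) or 5 (2.10).

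The Jun family differed less. Jun was at 1476, 899, 694, 735 and 762 CPM, between the 14 d level and the FH level with no overlap on either side. It differed from 14 d by 1.37 ± 0.31 (FDR = 0.0221) and from FH by -1.59 ± 0.33 (FDR = 0.00303), neither past the fold threshold, and by 1.11 and -1.85 without dediHep replicate 1. Junb was at 522, 389, 193, 243 and 214 CPM, above all 14 d libraries by 1.52 ± 0.37 (FDR = 0.0299), also short of it, and by 1.24 without replicate 1. Jund, at 282 to 552 CPM, differed by -0.48 from 14 d and by -1.01 from FH (FDR = 0.102).

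Fosl1 and Fosl2, the members that had stayed up in culture, did not differ detectably from 14 d, with log2 values of 0.09 (FDR = 0.904) and 0.29 (FDR = 0.66). Against FH, Fosl1 was at 11.8, 19.1, 11.5, 23.3 and 21.4 CPM, at least 14.5-fold higher (FDR = 0.000385). Fosl2 was at 138, 75.6, 37.6, 97.7 and 58.4 CPM, above every FH library, by 2.20 ± 0.49 (FDR = 0.00471), and lost the call at 1.90 without dediHep replicate 1.

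Myc was at 258 CPM in dediHep replicate 1 and at 10.6, 29.7, 8.31 and 2.37 CPM in the others. The range overlapped with FH and with 14 d. Myc was called against FH (5.13 ± 1.82, FDR = 0.0449) and against 14 d (4.35 ± 1.55, FDR = 0.0959). Against FH it was 2.83 without dediHep replicate 1, and the call was lost without FH replicate 1 (5.52), 2 (5.63) or 3 (4.48). Against 14 d it was 2.08 without dediHep replicate 1 and 1.67 with the GC gap as a covariate, and the call was lost in both, as it was without dediHep replicate 3 (4.54) or 14 d replicate 1 (4.03), 2 (4.30) or 3 (4.62).

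In dediHeps against 14 d, 5 of 26 other immediate-early genes were higher and none lower, with a median of 1.35 against 0.08 over all genes. Zfp36 (4.56 ± 0.72, FDR = 0.00414), the MAP kinase phosphatase gene Dusp1 (2.85 ± 0.46, FDR = 0.00468) and the orphan receptor gene Nr4a2 (2.24 ± 0.48, FDR = 0.0187) were among them. Egr2, a close relative of Egr1, was also higher (4.12 ± 0.68, FDR = 0.00538), as was Mycn, the paralogue of Myc (3.26 ± 0.84, FDR = 0.0342). AP-1 targets were divided, with 4 of 15 higher and 1 lower and a median of -0.52. The chemokine genes Ccl2 (3.34 ± 0.41) and Cxcl1 (3.34 ± 0.45) and Vegfa (3.15 ± 0.50) rose, and Timp1, a metalloproteinase inhibitor gene, fell by 2.47 ± 0.38 on the log2 scale. Without dediHep replicate 1, 4 of 26 other immediate-early genes were higher, with a median of 0.99, and 4 of 15 AP-1 targets were higher and 1 lower. Zfp36, Dusp1, Nr4a2, Egr2 and Mycn were each still called, at 2.08 to 4.12.

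The comparison of aggregates with monolayer dediHeps asked what changed when dediHeps were moved from the plate into a condition meant to favour hepatocytes. Of 10 members, 6 were called lower in aggregates (Fos, Fosb, Junb, Atf3, Egr1 and Myc) and none higher, where 5.11% of 11265 genes were called lower and 4.39% higher. Without dediHep replicate 1 there were 4 (Fos, Fosb, Atf3 and Egr1). Hepatocyte markers summed to 9478 to 14360 CPM in aggregates and to 1434 to 5581 CPM in dediHeps.

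**Figure D3:**
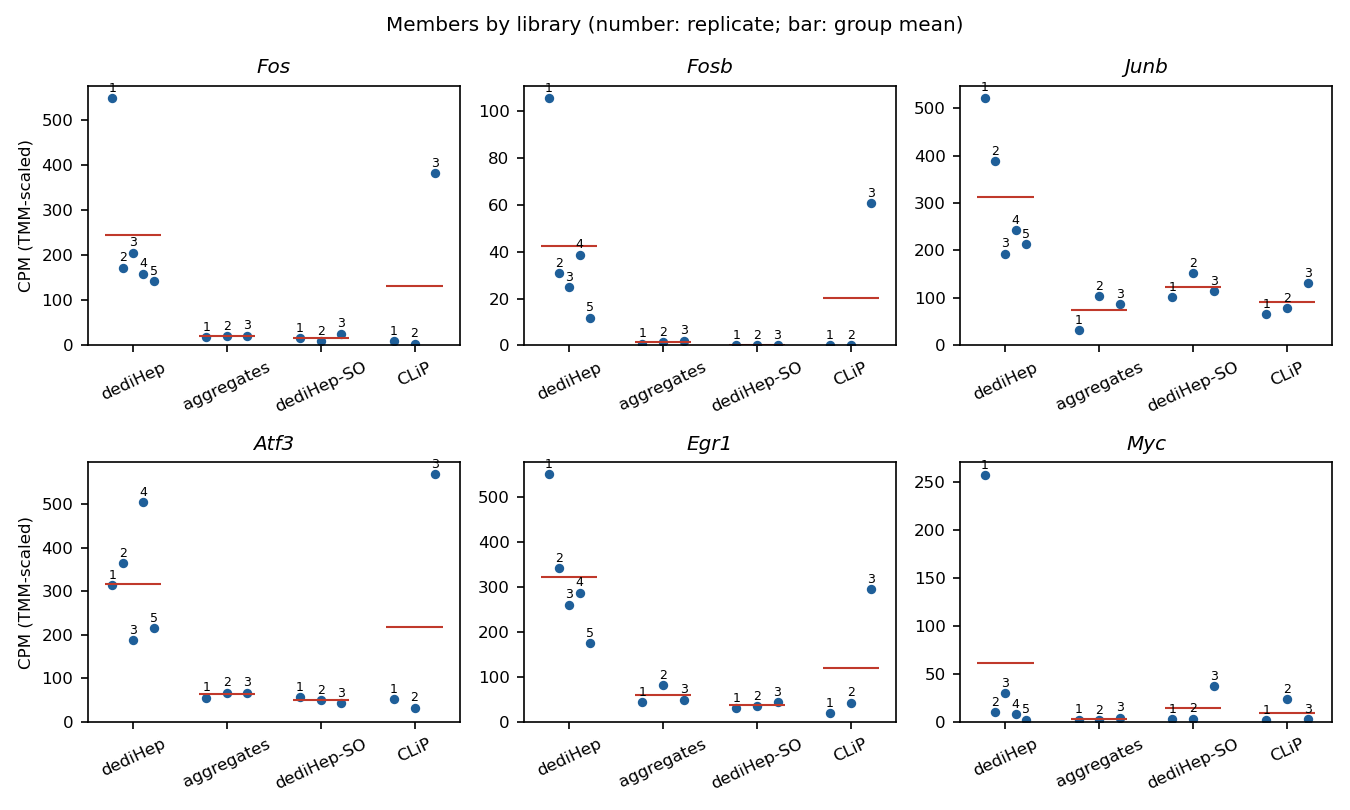
Level of 6 members (CPM, TMM-scaled, linear axis from 0) in dediHeps, aggregates, dediHep-SOs and CLiPs; numbers are replicates and the red bar is the group mean. Replicate 1 is the highest dediHep library for Fos, Fosb, Junb, Egr1 and Myc, and replicate 3 is the highest CLiP library for 5 of the 6 genes, Myc being the exception.

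Fos was at 17.8, 20.0 and 21.9 CPM in aggregates, below every dediHep library, a change of -3.61 ± 0.54 (FDR = 0.00253) that was -3.09 without dediHep replicate 1. Fosb was at 0.809, 1.31 and 2.04 CPM, again with no overlap (-4.82 ± 0.83, FDR = 0.00523, and -4.16 without that library). Atf3 was at 55.8, 67.5 and 67.4 CPM (-2.31 ± 0.37, FDR = 0.00349). These 3 genes were also called lower in the fit with the GC gap as a covariate.

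Egr1 was at 44.5, 82.3 and 49.5 CPM, below all dediHep libraries (-2.45 ± 0.42, FDR = 0.00498), and its value was -2.17 without dediHep replicate 1 and -1.80, short of the fold threshold, with the GC gap as a covariate. Junb was at 32.4, 104 and 87.3 CPM, also below all dediHep libraries (-2.05 ± 0.47, FDR = 0.0187), and fell short of the fold threshold without dediHep replicate 1 (-1.79) or 2 (-1.98), without aggregate replicate 1 (-1.72) and with the GC gap as a covariate (-1.43). Myc was at 2.43, 1.74 and 4.59 CPM and overlapped with dediHeps. Its change of -4.36 ± 1.53 (FDR = 0.0789) was -2.15 without dediHep replicate 1 and -0.48 with the GC gap as a covariate, with the call lost in both, as it was without aggregate replicate 1 (-4.31), 2 (-4.07) or 3 (-4.90). GC gaps were 0.23 to 0.88 in aggregates and -1.43 to 0.37 in dediHeps.

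Fosl1 (0.809, 4.79 and 9.18 CPM), Fosl2 (13.8, 30.9 and 28.1 CPM) and Jun (358, 273 and 505 CPM) were below every dediHep library without reaching the fold threshold, which Fosl1 passed only without aggregate replicate 3 (-2.48, FDR = 0.0716). The differences were -1.75 ± 0.59 (FDR = 0.0686), -1.72 ± 0.46 (FDR = 0.0336) and -1.26 ± 0.33 (FDR = 0.0318). Jund overlapped with dediHeps, at a difference of 0.30 (FDR = 0.502). With the culture name as a block, which pairs aggregates and dediHeps of the same name, 7 members were called lower, Fosl2 being added.

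Of 26 other immediate-early genes 9 were lower in aggregates and none higher, with a median of -1.73 against -0.07 over all genes, among them the kinase gene Plk2 (-3.58 ± 0.58), Ier5l (-3.43 ± 0.68) and Dusp1 (-2.66 ± 0.43). Of 14 AP-1 targets 6 were lower and none higher, with a median of -1.59. They included the cyclin D1 gene Ccnd1 (-3.27 ± 0.55, FDR = 0.00472), Ccl2 (-2.40 ± 0.53, FDR = 0.0168) and Cxcl1 (-2.31 ± 0.42, FDR = 0.00638). Egr2 fell by 2.83 ± 0.58 on the log2 scale (FDR = 0.0117). Without dediHep replicate 1 the counts were 6 of 26 other immediate-early genes, with a median of -1.51, and 6 of 14 AP-1 targets, with a median of -1.31.

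Spherical organoids formed from dediHeps in Matrigel were compared with the same monolayer dediHeps. Of 10 members, 5 were called lower than in monolayer dediHeps (Fos, Fosb, Fosl1, Atf3 and Egr1) and none higher, where 4.65% of 11470 genes were called lower and 4.12% higher. The same 5 were called without dediHep replicate 1. The comparisons of aggregates and of dediHep-SOs share the dediHep libraries.

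Fos was at 16.1, 8.95 and 26.0 CPM in dediHep-SOs, below all dediHep libraries (-3.87 ± 0.61, FDR = 0.00224). Fosb had 0 UMIs in all 3, at least 94.0-fold lower. Fosl1 was at 2.90, 2.49 and 4.64 CPM (-2.37 ± 0.46, FDR = 0.00683). All 3 genes were therefore lower in each organoid library than in any dediHep library.

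Atf3 was at 57.0, 50.7 and 42.7 CPM (-2.67 ± 0.39, FDR = 0.00125) and Egr1 at 30.6, 35.3 and 43.6 CPM (-3.16 ± 0.42, FDR = 0.000791), with no overlap for either gene. Junb, at 102, 153 and 115 CPM, differed by -1.36 ± 0.39 (FDR = 0.0483), short of the fold threshold, and by -1.07 without dediHep replicate 1. Jun, at 269, 419 and 672 CPM, differed by -1.03 (FDR = 0.103), and Myc, at 2.58, 3.48 and 37.6 CPM, by -2.14 (FDR = 0.393), or 0.15 without that library. Fosl2 was at 94.4, 95.5 and 97.9 CPM, inside the range of dediHeps (0.22).

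Of 26 other immediate-early genes 11 were lower in dediHep-SOs and none higher, with a median of -2.09, and without dediHep replicate 1 there were 10, with a median of -1.30. Dusp1 (-5.10 ± 0.49), Sgk1 (-3.28 ± 0.31) and Csrnp1 (-2.87 ± 0.42) were among them. Of 14 AP-1 targets 3 were lower with or without that library, the chemokine genes Ccl2 and Cxcl1 and the EGF-receptor ligand gene Ereg (-4.14 ± 0.87, FDR = 0.0114). Mxi1, a Max partner that opposes Myc, rose by 2.28 ± 0.37 (FDR = 0.00248).

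Between the organoids, and between organoids of dediHep and intestinal origin, no member was called by edgeR or by DESeq2. In each of these 3 comparisons 8 members were tested, Fosb and Fosl1 having too few counts. From dediHep-SO to dediHep-BO 11.3% of all genes were called and 4 members had an unadjusted p under 0.05. The corresponding values were 8.91% and 4 members from FIPC-SO to dediHep-SO and 3.05% and 2 members from ISC-BO to dediHep-BO.

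Jun levels lay above those of intestinal organoids in organoids from dediHeps. Jun was at 769.6, 1017 and 677 CPM in dediHep-BOs and at 196, 234, 224 and 260.3 CPM in ISC-BOs, with no overlap and a difference of 1.87 ± 0.20 (FDR = 0.000377), short of the fold threshold. In dediHep-SOs it was above FIPC-SOs (160.4, 183 and 170.5 CPM) by 1.36 (FDR = 0.023). Junb was at 102, 153 and 115 CPM in dediHep-SOs and at 47.3, 58.7 and 47.1 CPM in FIPC-SOs, a difference of 1.23 (FDR = 0.0198) with no overlap. The Jun family was not alone in this. Fos was higher by 1.33 in dediHep-SOs (16.1, 8.95 and 26.0 CPM) than in FIPC-SOs (6.65, 5.98 and 7.09 CPM). Egr1 was higher by 1.24, at 30.6, 35.3 and 43.6 CPM against 11.7, 21.4 and 11.6 CPM. Neither gene overlapped between the groups, and neither reached the fold threshold.

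From dediHep-SO to dediHep-BO, Atf3 went from 57.0, 50.7 and 42.7 CPM to 27.2, 16.4 and 24.3 CPM (-1.11 ± 0.31, FDR = 0.0236). Egr1 went from 30.6, 35.3 and 43.6 CPM to 16.1, 22.6 and 8.80 CPM (-1.18 ± 0.38, FDR = 0.0422). Neither gene overlapped between the groups, and neither reached the fold threshold. Intestinal markers summed to 492 to 636 CPM in dediHep-SOs, 3324 to 3885 CPM in dediHep-BOs and 3521 to 4420 CPM in ISC-BOs.

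CLiPs were compared with dediHeps as another kind of expandable hepatocyte-derived cell. Fosl1 alone was called lower and none higher, where 1.39% of all genes were called lower and 1.65% higher. It was at 0.494, 2.95 and 0.453 CPM, below every dediHep library (-3.51 ± 0.66, FDR = 0.0254), and missed the FDR threshold without CLiP replicate 1, at -3.20. For most other members the 3 CLiP libraries differed widely.

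Fos was at 9.39, 4.01 and 382 CPM in CLiPs, Atf3 at 52.4, 33.1 and 569.5 CPM and Egr1 at 19.8, 42.8 and 294 CPM. For each gene replicates 1 and 2 lay below all dediHep libraries and replicate 3 lay within or above their range. Fosb had 0 UMIs in replicates 1 and 2 and was at 60.8 CPM in replicate 3. With all 3 libraries the differences from dediHeps were -0.86 ± 1.17 for Fos, -0.50 ± 0.81 for Atf3 and -1.41 ± 0.78 for Egr1, and Junb (65.8, 78.6 and 132 CPM) differed by -1.74 ± 0.44 (FDR = 0.0739).

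Without CLiP replicate 3, 6 members were called lower (Fos, Fosb, Fosl1, Junb, Atf3 and Egr1), where 1.23% of all genes were called lower and 1.5% higher. That library was set apart partly by its high sum of other immediate-early genes. The 6 calls are therefore no separate evidence of lower levels in CLiPs. The values were then -5.23 for Fos (FDR = 0.0172), -3.16 for Fosl1 (FDR = 0.0579), -2.10 for Junb (FDR = 0.074), -2.88 for Atf3 (FDR = 0.0265) and -3.35 for Egr1 (FDR = 0.0234). Fosl2 was at 119, 86.9 and 117 CPM, within the dediHep range in each library. Egr2 (-3.70 ± 0.97, FDR = 0.0814) and Mycn (-3.89 ± 0.81, FDR = 0.0377) were lower in CLiPs with all 3 libraries, and their values were -6.25 and -4.0 without CLiP replicate 3 and -3.71 and -3.94 without dediHep replicate 1, called each time.

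Verteporfin, given to ask what depends on Yap, changed no member past the call. Of 9 members tested, edgeR and DESeq2 called 0 and 1 had an unadjusted p under 0.05, against 0.269% of all genes called by edgeR. That member was Egr1, at 55.2 and 54.7 CPM with verteporfin and at 163 and 171 CPM with DMSO, a difference of -1.57 ± 0.26 (FDR = 0.05) with no overlap. Fosl1 (8.44 and 6.83 CPM against 12.6 and 15.1 CPM) differed by -0.83 (FDR = 0.599) and Atf3 (68.1 and 48.5 CPM against 41.6 and 32.0 CPM) by 0.69 (FDR = 0.563). Myc was at 7.14 and 64.6 CPM with verteporfin and at 23.8 and 106 CPM with DMSO, with overlapping libraries (-0.84, FDR = 0.792), and in each pair the library with more Myc was the one with the lower GC gap.

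**Figure D4:**
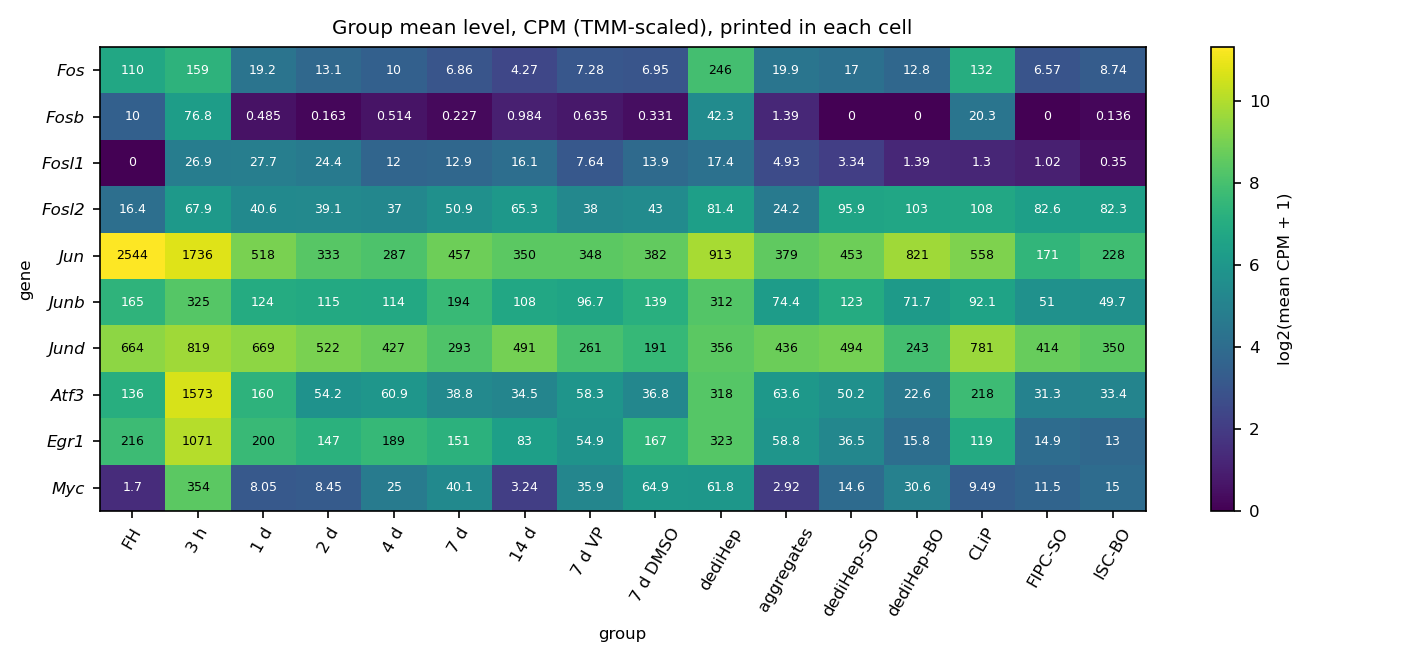
Group mean level (CPM, TMM-scaled, printed in each cell) of the 10 members in all 16 groups; colour follows log2(mean CPM + 1). The columns of 3 h and dediHeps hold the highest or second-highest mean for Fos, Fosb, Junb, Atf3 and Egr1, Fosl2 is highest in CLiPs and the organoids of dediHeps, and Jun is highest in FH.

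Over all 16 groups the members fell into different orders. Atf3 (1573 ± 325 CPM, SD, n = 3), Egr1 (1071 ± 273 CPM) and Myc (354 ± 194 CPM) had their highest mean at 3 h. No library of another group reached the 3 h range of Atf3 or Egr1, while for Myc dediHep replicate 1 (258 CPM) lay within it (156 to 544 CPM). The group with the next mean was dediHep for Atf3 (318 CPM) and Egr1 (323 CPM) and DMSO for Myc (64.9 CPM). Fosb (76.8 ± 72.8 CPM) and Junb (325 ± 78.7 CPM) were also highest at 3 h, but their libraries overlapped with those of dediHeps.

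Fos had its highest mean in dediHeps (246 ± 171 CPM, SD, n = 5), followed by 3 h (159 ± 69.9 CPM), CLiPs and FH (110.3 ± 59.7 CPM), with overlap between neighbours. Without dediHep replicate 1 and CLiP replicate 3 the means were 169.9 CPM in dediHeps, still the highest, and 6.70 CPM in CLiPs. A gap then separated FH from the aggregates (19.9 CPM) and the remaining groups down to 14 d (4.27 CPM). Fosb had its gap at the same place, between FH (10.0 ± 2.15 CPM) and groups with means of at most 1.39 CPM, and 21 of the 49 libraries held no UMI of it.

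Jun stood highest in FH (2544 ± 291 CPM, SD, n = 3), clear of 3 h (1736 ± 244 CPM), and lowest in ISC-BO (228 CPM) and FIPC-SO (171 CPM), each clear of its neighbour. Fosl1 ran the other way, with its highest means at 1 d (27.7 CPM) and 3 h (26.9 CPM) and none in FH. Its levels from 4 d upwards (12.0 CPM and more) did not overlap with verteporfin-treated cells (7.64 CPM), aggregates and dediHep-SOs, and the dediHep-SO libraries (2.49 to 4.64 CPM) in turn stood above those of dediHep-BO (0.419 to 2.43 CPM).

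Fosl2 was the 1 member highest in CLiPs (108 CPM), dediHep-BO (103 CPM) and dediHep-SO (95.9 CPM), which overlapped with each other, and lowest in FH (16.4 ± 2.29 CPM). Jund showed no gap at all, since every neighbouring pair in its order overlapped. On library-total CPM, 6 of the 10 members kept the same highest group, and Fosb and Junb then peaked in dediHeps, Fosl2 in dediHep-BOs and Jund in CLiPs.

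Likeness of pattern was measured as Pearson's r of log2 CPM over the 16 group means, as a description in which all genes share the same libraries. The closest gene to Fos was Fosb (0.92), followed by Zfp36 (0.886) and Man2a2 (0.845). Zfp36 was also close to Fosb (0.896) and Atf3 (0.905). Atf3 was further like Cebpb (0.894) and Gdf15 (0.893), and Egr1 was like Csrnp1 (0.929), St3gal1 (0.927) and Btg2 (0.926). Junb was like Egr1 (0.895), 9530068E07Rik (0.882) and Shb (0.864). Fosl1 was most like Baiap2l1 (0.94) and was also like the TWEAK receptor gene Tnfrsf12a (0.893), Fosl2 was most like Sox9 (0.873), Jun like Bfar (0.919) and Jund like Aup1 (0.861). The genes nearest to Myc were Gm5652 (0.944), Gm3809 and Gm10290. Among the members the lowest value was between Fosl2 and Egr1 (-0.388).

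**Figure D5:**
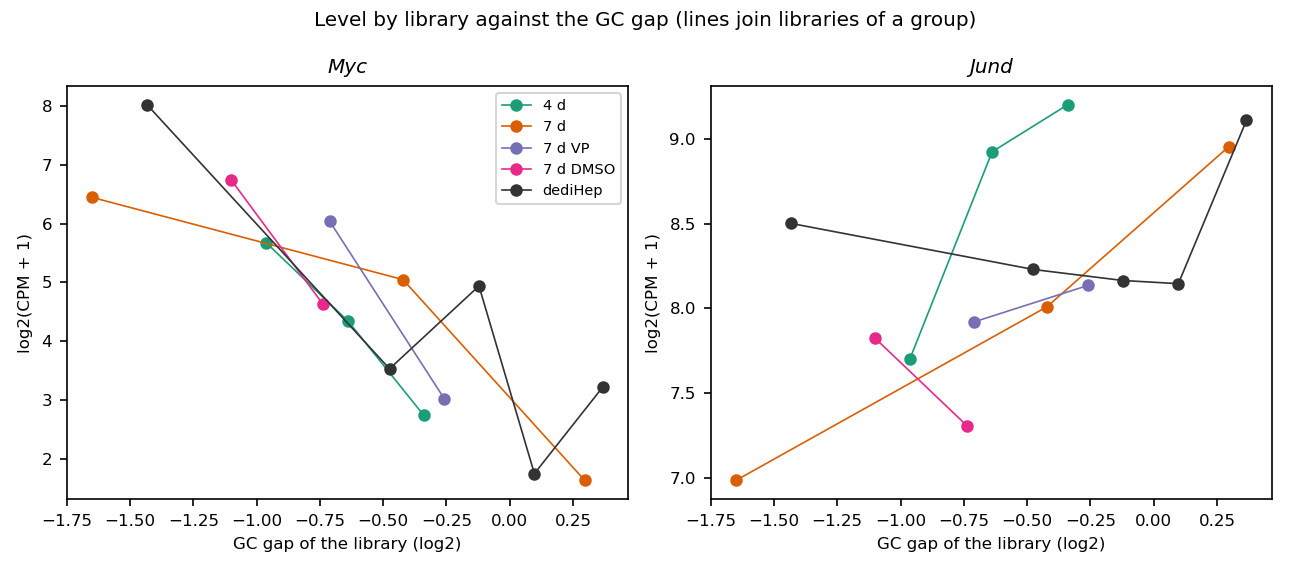
Level of Myc and Jund, as log2(CPM + 1), against the GC gap of each library in 5 groups; lines join libraries of a group. Myc is highest in the library with the lowest gap in each of the 5 groups. Jund is highest in the library with the highest gap at 4 d, at 7 d, with verteporfin and in dediHeps but not with DMSO. The 5 groups are a selection, and verteporfin and DMSO have 2 libraries each. Of the 14 groups of 3 or more libraries, Myc was highest in the lowest-gap library in 8 and in the highest-gap library in 4.

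The spread of Myc and Jund within groups went with the GC gap of the libraries in opposite ways. In 8 of the 14 groups of 3 or more libraries the highest Myc level was in the library with the lowest gap, and in 4 it was in the one with the highest. Atf3 (46.4% GC) was highest in the highest-gap library in 9 groups and in the lowest-gap library in 3. The members next to Myc and Jund in GC content did not share their patterns. Fos (32.6% GC) was highest in the lowest-gap library in 4 groups and in the highest-gap library in 5. For Junb (53.6% GC) these counts were 4 and 2, and for Egr1 (38.6% GC) they were 6 and 2. The changes of Fos, Fosb and Atf3 between dediHeps and aggregates, and those of all 6 members called at 3 h against FH, kept their calls with the gap as a covariate.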

How the data were processed

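RNA of 49 libraries in 16 groups was measured by CEL-seq2. The values deposited by the authors are raw UMI counts per Ensembl gene, 1 table per series, not normalized and with no library pooled. The submitters' processing notes name bcl2fastq 2.20, Bowtie2 2.3.1, HTSeq 0.6.0 and the GRCm38 build, and the annotation release and strand setting are not given in the sources used here. No column was left out. The members and gene lists were chosen with earlier results of these data known.

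From the counts, edgeR 4.0.16 (R 4.3.3) fitted quasi-likelihood models with TMM factors after filterByExpr (minimum count 10, minimum total 15), with Benjamini-Hochberg adjustment over all genes tested. The 7 groups from FH to 14 d entered 1 fit, and every other comparison used its own groups. Of 20 comparisons the thresholds were an FDR of 0.1 and a log2 fold change of 2. SEs came from the fold change and its F statistic. A group without UMIs was set to a floor of 3 counts, and intervals and floors cover counting error only. With 6 bases a UMI allows 4096 sequences, which 4 libraries reached for some gene, and the highest count of a member was 2632 (Jun). No pair of replicate libraries was alike within sampling noise (chi-square per degree of freedom 5.62 to 68.0 over 54 pairs). DESeq2 1.42.0, other scalings and filters, leaving out each library, replicate blocks and, chosen after seeing the data, the GC gap as a covariate and gene lists without 2 libraries that stood apart were the alternatives. The fits were tested on simulated data. Same-numbered or same-named libraries paired (3 or more pairs, every correlation of deviations over 0.1) in aggregates against dediHeps by culture name (0.169 to 0.323) and in 7 d against 4 d (0.268 to 0.601). Genes named beyond the members were up to 3 per list and direction of change with the smallest p. Some genes of these lists are not reported here.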

Additional observations from a re-analysis of the deposited data

Results flagged for a closer look

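Dixon's ratio set the highest or lowest library against the others in 20 sets of values. Each set was a member in a group of 4 or 5 libraries. At the 95% critical value about 1 set in 20 passes by chance if values are normally distributed, which CPM need not be. Of the 20 sets, 5 passed. In dediHep replicate 1, Fos was at 548 CPM with the next library at 206 CPM, Fosb at 105 CPM with the next at 38.8 CPM, Jun at 1476 CPM with the next at 899 CPM, and Myc at 258 CPM with the next at 29.7 CPM. These 4 values come from 1 library and are not independent of each other. In ISC-BO replicate 1, Fosb was at 0.542 CPM, which is 1 UMI, with the other 3 libraries at 0. With those at 0 the ratio is 1 whatever the value, so this pass carries no information.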

How the results depend on the processing

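The 54 called changes of members were recomputed under 840 alternative values, of which 792 kept the direction and the call, 48 kept the direction and lost the call, and 0 changed direction. The losses were concentrated in Myc and in values close to the fold threshold. Atf3 at 14 d against FH lost its call under 10 alternatives, DESeq2 (-1.95), scaling by relative log expression (-1.96) and the block by title number (-1.89) among them. With the GC gap as a covariate, Egr1 (-1.80) and Junb (-1.43) lost theirs in aggregates against dediHeps.

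The count of members called moved by over 1.5 times in the following cases. At FDR 0.05 with no fold threshold, it was 8 in 1 d against 3 h, 5 in dediHeps against FH, 3 in dediHep-SO against FIPC-SO, 2 in dediHep-BO against dediHep-SO, 1 in dediHep-BO against ISC-BO, 1 with verteporfin and 0 in 14 d against 7 d. The last was also 0 with the GC covariate, with all 49 libraries in 1 fit and with the replicate block by description number, and dediHep-BO against ISC-BO was 1 (Jun) with counts corrected for UMI collisions. On library-total CPM, 6 members kept their highest group.

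Leaving out each library in turn gave 0 to 6 called members in CLiPs against dediHeps, 0 to 1 in 14 d against 7 d, in dediHep-BO against dediHep-SO and with verteporfin, 4 to 6 in 3 h against FH and in aggregates, 2 to 4 in dediHeps against FH and 3 to 5 in dediHeps against 14 d. The single calls that appeared were of Myc, in dediHep-BO without dediHep-SO replicate 3 (3.42) and with verteporfin without its replicate 2 (-3.14). No other comparison met the criterion for pairing given in the methods, and verteporfin against DMSO, with 2 pairs that share 1 correlation (0.293), had too few to decide, its replicate block by title number calling 0 members. The replicate block by description number took the call from Fosb (0.75) and Fosl2 (1.81) at 3 h against FH, leaving 4 members called, and only 1 of its pairs shared a number there. The replicate block by culture name added Fosl2 in aggregates and changed no other call there. Low counts limit Fosb, Fosl1 and Myc, since 3 UMIs stand for up to 4.11 CPM.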
